A study of Mus musculus with 14 samples.

Results

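The 8 female mice of a 14-mouse study of Dnmt3a loss are described here, 4 heterozygous for a knockout of Dnmt3a and 4 wild type. They were chosen by the number that opens each sample title, 047, 139 or 141. Prefixes 047 and 139 held 1 mouse of each genotype and prefix 141 held 2 of each. All were C57BL/6J mice of 8 weeks, the wild types were littermates of heterozygotes per the labels' protocols, and total RNA of the cortex was sequenced from a directional kit as single-end reads. The labels do not say which part of the gene the knockout allele lacks, whether littermates share a title prefix, or what the prefix marks. The other 6 mice, of prefixes 046, 048 and 119, were males.

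Dnmt3a encodes an enzyme that writes new methyl groups onto cytosines in DNA. In the brain it is most active after birth, when neurons gain methylation at CG sites and at cytosines outside CG. Heterozygous loss-of-function variants in people cause Tatton-Brown-Rahman syndrome, with overgrowth and intellectual disability.

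Total counts were 8951835 to 14335406 per female. Prefix 141 stood apart from the other females. On the first principal component of log2 CPM (read counts scaled to the size of each library), 46.9% of the variance, its wild types lay at 30.1 and 26.8 and its heterozygotes at 10.1 and 5.10, while the 4 mice of prefixes 047 and 139 lay between -20.5 and -14.3. Mitochondrial transcripts other than ribosomal RNA took 1.99% and 1.97% of counts in the prefix 141 wild types, 1.56% and 1.46% in its heterozygotes and 0.571% to 0.797% elsewhere. Markers of cortical layers were present: 14 of 14 upper-layer and 17 of 18 deep-layer markers were abundant enough to test, and Hs3st4 was listed at 0. Markers of striatum (15 of 17 tested) and of hippocampus and thalamus (14 of 16 tested) were also present. Being abundant enough to test therefore does not set cortex apart from these regions.

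Dnmt3a was lower in every heterozygote. Wild-type levels were 158 CPM in prefix 047, 148 in prefix 139 and 152 and 146 in prefix 141, and heterozygous levels were 118, 89.5, and 94.2 and 108 CPM in the same order. The groups did not overlap, and within each prefix the heterozygotes were below the wild types. The mean was 151 ± 5.16 CPM in wild types and 102 ± 12.95 CPM in heterozygotes (SD, n = 4 each). The fitted level was 67.5% of wild type (95% interval 61.0 to 74.6), or -0.57 on the log2 scale (SE 0.0686), with an adjusted p of 0.00219 in the quasi-likelihood test of edgeR. The two-sided exact permutation test over 70 divisions of the animals gave p = 0.0286, and over the 24 relabellings within prefix p = 0.0833, each the smallest it can give. The difference was -0.42, -0.73 and -0.56 in prefixes 047, 139 and 141. Counts cover the gene as a whole and may include RNA of the knockout allele, and reads of the overlapping transcript Dnmt3aos could not be told apart without knowing the strand setting.

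Of 13814 genes tested, 5 passed an adjusted p of 0.05 (0.0362%), with 4 lower in heterozygotes (0.029%) and 1 higher (0.00724%). Without the adjustment, 1649 genes (11.9%) had p under 0.05. Beside Dnmt3a, the genes that fell were Aldh1a1, Itih3 and Slc25a18, and the gene that rose was Ndn. The plot of all genes shows these 5 above the rest.

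**Figure D1:**
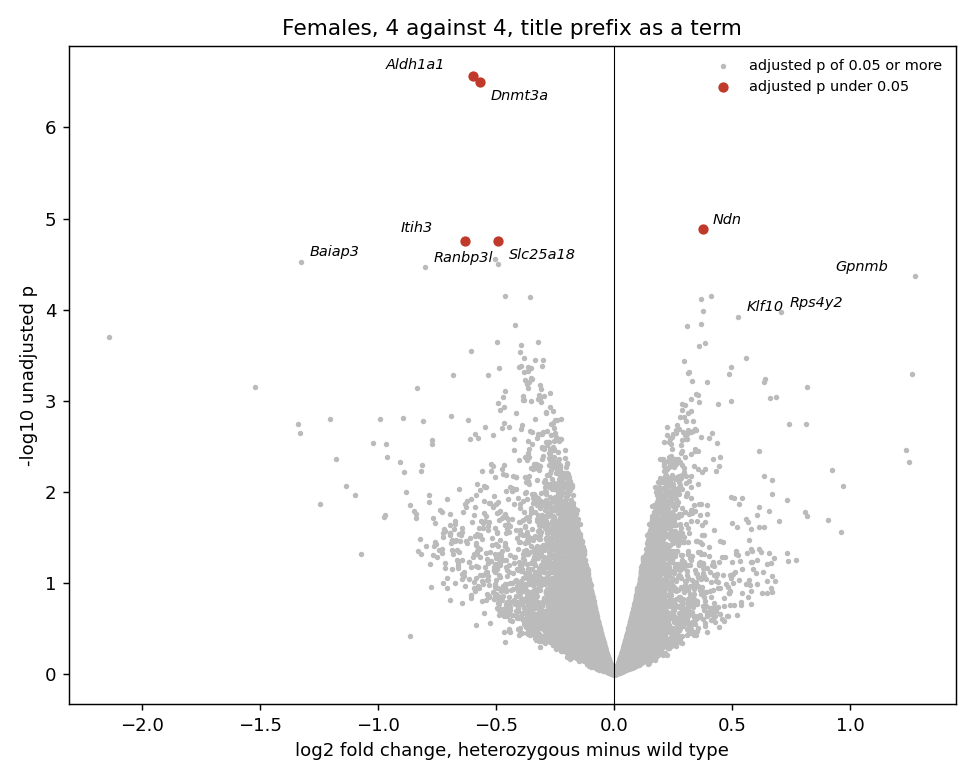
Log2 fold change (heterozygous minus wild type, x axis) against -log10 of the unadjusted p (y axis) of each of the 13814 genes tested in the 8 females. The 5 red points passed an adjusted p of 0.05, and Aldh1a1 and Dnmt3a lie above the other 3.

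Aldh1a1 encodes a retinaldehyde dehydrogenase, an enzyme that makes retinoic acid. Its wild-type levels were 28.3 CPM in prefix 047, 34.1 in prefix 139 and 50.1 and 52.0 in prefix 141, against 19.99, 20.6, and 34.6 and 33.6 CPM in heterozygotes. The groups overlapped because prefix 141 was high in both genotypes, but in each prefix the heterozygotes were lower, by -0.50, -0.72 and -0.58 on the log2 scale. The fitted log2 difference was -0.60 (SE 0.0716, adjusted p = 0.00219 by edgeR), a level of 66.0% of wild type (95% interval 59.4 to 73.3).

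Itih3 encodes a heavy chain of the inter-alpha-trypsin inhibitors, proteins that bind hyaluronan in the extracellular matrix. It was at 10.9, 10.4, and 19.02 and 19.9 CPM in wild types and 7.12, 7.91, and 12.2 and 11.3 CPM in heterozygotes of prefixes 047, 139 and 141. The heterozygotes were lower in each prefix, while the groups as a whole overlapped. Over the 8 mice the log2 difference was -0.63 (SE 0.105, adjusted p = 0.0487 by edgeR).

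Slc25a18 encodes a glutamate carrier of the inner mitochondrial membrane. It was at 31.7, 31.5, and 56.9 and 55.2 CPM in wild types and 28.1, 21.9, and 38.4 and 34.7 CPM in heterozygotes. The groups overlapped, and the gap was smallest in prefix 047 (-0.17) and larger in prefixes 139 and 141 (-0.52 and -0.62). Its fitted log2 difference was -0.49 (SE 0.0824, adjusted p = 0.0487 by edgeR).

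Ndn, an imprinted gene expressed from the paternal copy, encodes necdin, a protein of the MAGE family found in neurons. Wild types were at 101, 116, and 84.3 and 84.5 CPM and heterozygotes at 132, 140, and 118 and 110 CPM. Each heterozygote was above the wild types of its prefix, and the groups overlapped only through the prefix 139 wild type and the prefix 141 heterozygote at 110 CPM. The fitted log2 difference was 0.38 (SE 0.0613, adjusted p = 0.0487 by edgeR), and all 3 prefixes were higher (0.37, 0.27 and 0.43).

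Aldh1a1 and Dnmt3a passed with any 1 mouse left out (adjusted p up to 0.0458 and 0.0485 by edgeR). Slc25a18 passed in 4 of those 8 fits, and Itih3 and Ndn in 2 of 8, the fits without a prefix 139 mouse. Leaving out the wild type or the heterozygote of prefix 139 raised the number of genes called to 225 and 226, and leaving out both gave 228. Leaving out any 1 of the 4 prefix 141 mice gave 2 or 3. Without the prefix term edgeR called 0 genes (421 had p under 0.05 before adjustment), while DESeq2 with the prefix term called 28 of the 2067 genes to which it gave an adjusted p. Of the 5 genes called by edgeR, 2 were among these 28, Dnmt3a and Ndn.

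**Figure D2:**
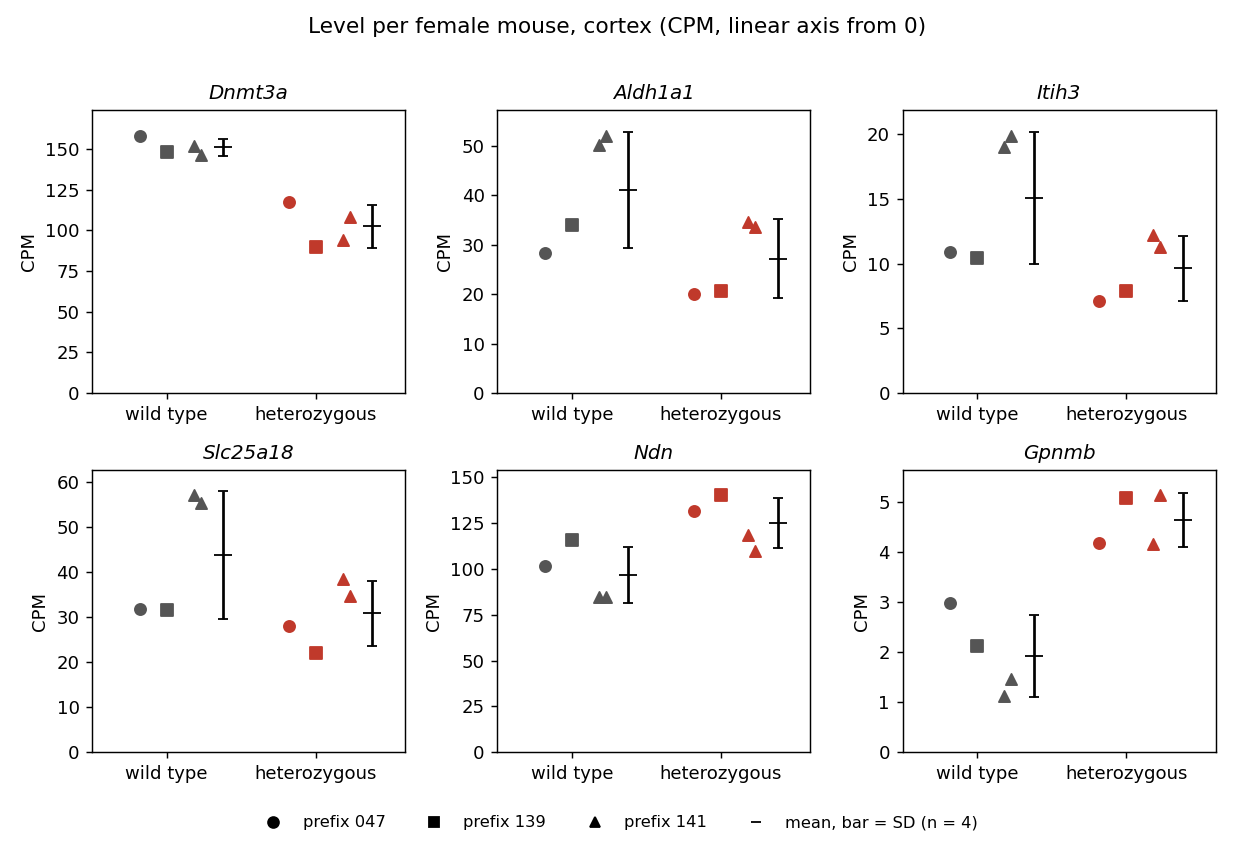
Level in CPM (y axis, linear from 0) of 6 genes in each female by genotype, with marker shape for the title prefix and the mean with SD beside the points. Dnmt3a and Gpnmb do not overlap between genotypes, while Aldh1a1, Itih3 and Slc25a18 are higher in prefix 141 in both genotypes and lower in heterozygotes within it.

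Astrocyte markers were also lower in heterozygotes of prefix 141, and in bulk tissue fewer cells of a type and less RNA per cell cannot be told apart. Their summed level was 13420 and 13640 CPM in the wild types of prefixes 047 and 139 and 14070 and 13910 CPM in the heterozygotes, against 24480 and 23740 CPM in the wild types and 19540 and 17950 CPM in the heterozygotes of prefix 141. The summed level was thus lower in heterozygotes in prefix 141 and slightly higher in them in prefixes 047 and 139. It is carried mostly by the most abundant markers. The mean log2 CPM of the list was 7.03 in the wild type and 6.91 in the heterozygote of prefix 047. In prefix 139 it was 7.04 and 7.05, so the direction outside prefix 141 depended on the measure. None of the 23 markers was at 0. Aldh1a1 differed by -0.62 in prefixes 047 and 139 together and by -0.58 in prefix 141, a difference of 0.04 between them (SE 0.139, adjusted p = 0.906 by edgeR). Itih3 differed by -0.50 and -0.73, and Slc25a18 by -0.35 and -0.61, in the same order.

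The CG dinucleotide, the main target of the enzyme, was counted in the promoter windows of the genes that changed, 250 bases before to 50 after a RefSeq start (GRCm38.p6, another build than the mm9 of the counts). CG reads the same on both strands. The Ndn window held 11, and 41.4% of the 32851 windows in the table held at least as many. The Aldh1a1 windows held 3 and 1 (76.7% and 94.6% of windows held as many), that of Itih3 held 3 and that of Slc25a18 held 4. The median was 7 over all windows and 20 over windows of genes tested. Of 17 genes looked up, the 16 named from the main comparison and Myh7b (described below), 13 had a window. Trf, Dkk3, Rps4y2 and Klf10 had no entry. The windows of the gene that rose and of the gene with the smallest p among those that fell are shown 5′ to 3′ with CG in capitals, and methylation was not measured in these libraries.
Ndn, chr7:62348027-62348326, plus strand: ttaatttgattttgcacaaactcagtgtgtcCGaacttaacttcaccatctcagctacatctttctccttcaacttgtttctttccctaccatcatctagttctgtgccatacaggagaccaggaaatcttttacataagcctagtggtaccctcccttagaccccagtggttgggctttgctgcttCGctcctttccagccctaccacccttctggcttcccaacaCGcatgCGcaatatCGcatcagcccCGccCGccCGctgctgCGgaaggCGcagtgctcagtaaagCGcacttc
Aldh1a1, upstream start, chr19:20492333-20492632, plus strand: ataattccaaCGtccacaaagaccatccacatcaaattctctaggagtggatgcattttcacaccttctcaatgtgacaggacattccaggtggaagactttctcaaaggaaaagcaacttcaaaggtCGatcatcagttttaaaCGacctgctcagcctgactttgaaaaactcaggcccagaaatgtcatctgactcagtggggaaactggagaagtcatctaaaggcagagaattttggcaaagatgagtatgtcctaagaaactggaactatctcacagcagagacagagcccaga
Aldh1a1, downstream start, chr19:20601718-20602017, plus strand: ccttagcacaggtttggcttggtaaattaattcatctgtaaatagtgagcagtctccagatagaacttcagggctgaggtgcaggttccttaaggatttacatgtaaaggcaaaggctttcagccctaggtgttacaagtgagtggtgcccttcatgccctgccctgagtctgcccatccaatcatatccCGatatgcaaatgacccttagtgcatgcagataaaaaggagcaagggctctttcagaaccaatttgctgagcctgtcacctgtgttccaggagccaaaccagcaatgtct
Most of the capitals in the Ndn window stand toward its 3′ end, and the downstream Aldh1a1 window has 1 CG.

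The genes next in order were named down to 8 in each direction, and none of these passed. Among genes lower in heterozygotes, Sox21, an HMG-box transcription factor gene of neural progenitors and glia, was at 21.6, 23.7, and 31.1 and 35.0 CPM in wild types and 16.9, 15.4, and 24.9 and 21.1 CPM in heterozygotes of prefixes 047, 139 and 141. Its groups overlapped through prefix 141, with a log2 fold change of -0.51 (SE 0.0879, adjusted p = 0.0528 by edgeR). Baiap3, whose product acts in the release of dense-core vesicles, was at 8.44, 6.39, and 8.79 and 5.10 CPM in wild types and 1.81, 3.67, and 3.47 and 2.15 CPM in heterozygotes, and the groups did not overlap. This was the largest fitted value among the 16, -1.33 (SE 0.231, adjusted p = 0.0528 by edgeR), from a mean of 58.5 reads, and Baiap3 overlaps Tsr3. Necab2, a neuronal calcium-binding protein gene, had -0.49 without overlap, and Ranbp3l, one of the astrocyte markers, had -0.80 with overlap, both at the same adjusted p.

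Among genes higher in heterozygotes, Gpnmb, a transmembrane glycoprotein gene of lysosome-rich cells, was at 2.98, 2.13, and 1.12 and 1.46 CPM in wild types and 4.18, 5.08, and 4.16 and 5.13 CPM in heterozygotes. Every heterozygote lay above every wild type, with a fitted log2 difference of 1.28 (SE 0.230, adjusted p = 0.0590 by edgeR). Counts were low, with a mean of 38.4 reads, and were lowest in the prefix 141 wild types. The gap was 0.47 in prefix 047, 1.19 in prefix 139 and 1.72 in prefix 141. It was the only one of 25 lysosomal and MiT/TFE genes with a log2 value above 1, and the list's median was 0.04.

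Trf, which encodes transferrin and is made by oligodendrocytes, was at 185, 202, and 174 and 206 CPM in wild types and 293, 250, and 227 and 252 CPM in heterozygotes, without overlap (0.41, SE 0.0778, adjusted p = 0.0761 by edgeR). Srprb, the beta subunit gene of the signal recognition particle receptor, lies next to Trf on chromosome 9 and had a similar profile, at 212, 230, and 201 and 231 CPM against 324, 281, and 255 and 279 CPM (0.38). How far reads of the neighbours are shared was not tested. Dkk3, a gene of the secreted Dickkopf proteins, was at 299 to 402 CPM in wild types and 441 to 492 CPM in heterozygotes (0.37). Tmod1, an actin filament capping protein gene, was at 30.9 to 39.1 and 43.6 to 46.3 CPM (0.37).

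Klf10, a zinc finger transcription factor gene, overlapped between the groups, with 38.3 to 78.5 CPM in wild types and 60.8 to 93.2 CPM in heterozygotes (0.52). Rps4y2 had a value of 0.71 but is listed in RefSeq as the transcribed pseudogene Rps4l, so reads could be shared with near-identical copies and its value is uncertain. Of the 16 genes in the 2 directions, 9 did not overlap between the groups, against 357 of all genes tested (2.58%), and all 16 had the same sign in the 3 prefixes, as did 12% of all genes upward and 13% downward. The genes were chosen on these values, so the counts are a description. Myh7b, a myosin heavy chain gene followed because of earlier results, was at 2.01 to 2.92 CPM in wild types and 3.68 to 5.08 CPM in heterozygotes without overlap (0.74, SE 0.199, adjusted p = 0.209 by edgeR), and it overlaps Trpc4ap. Its mean was 38.6 reads, also a low count.

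The genotype difference was not the same in prefix 141 as in prefixes 047 and 139. A test of this difference called 1158 of 13814 genes (8.38%), of which 650 (4.71%) had a higher and 508 (3.68%) a lower value in prefix 141. The genes with the smallest p had opposite signs in the 2 groups of prefixes. Grin2b, a subunit gene of NMDA-type glutamate receptors, was at 726 and 629 CPM in the wild types of prefixes 047 and 139 and 586 and 485 CPM in the heterozygotes, but at 357 and 375 CPM in the wild types of prefix 141 and 477 and 534 CPM in its heterozygotes. The 4 heterozygotes lay between these 2 pairs of wild types. Its value was -0.34 in prefixes 047 and 139 and 0.46 in prefix 141, a difference of 0.81 (SE 0.0928, adjusted p = 1.07e-06 by edgeR).

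The same arrangement of animals was seen in the other 5 genes named for this test. Odz1, a teneurin gene of synaptic partner matching, had -0.39 and 0.45, and L1cam, a neuronal adhesion molecule gene, had -0.20 and 0.54. The other direction was led by Mt2, Mt1 and Cst3. Mt1, a metallothionein gene of metal binding, was at 73.5 and 97.6 CPM in the wild types and 106 and 127 CPM in the heterozygotes of prefixes 047 and 139. In prefix 141 it was at 150 and 142 CPM in wild types and 108 and 97.6 CPM in heterozygotes. Cst3, the cystatin C gene, expressed in astrocytes and other glia, had 0.31 and -0.47, and Mt2 had 0.56 and -0.49.

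**Figure D3:**
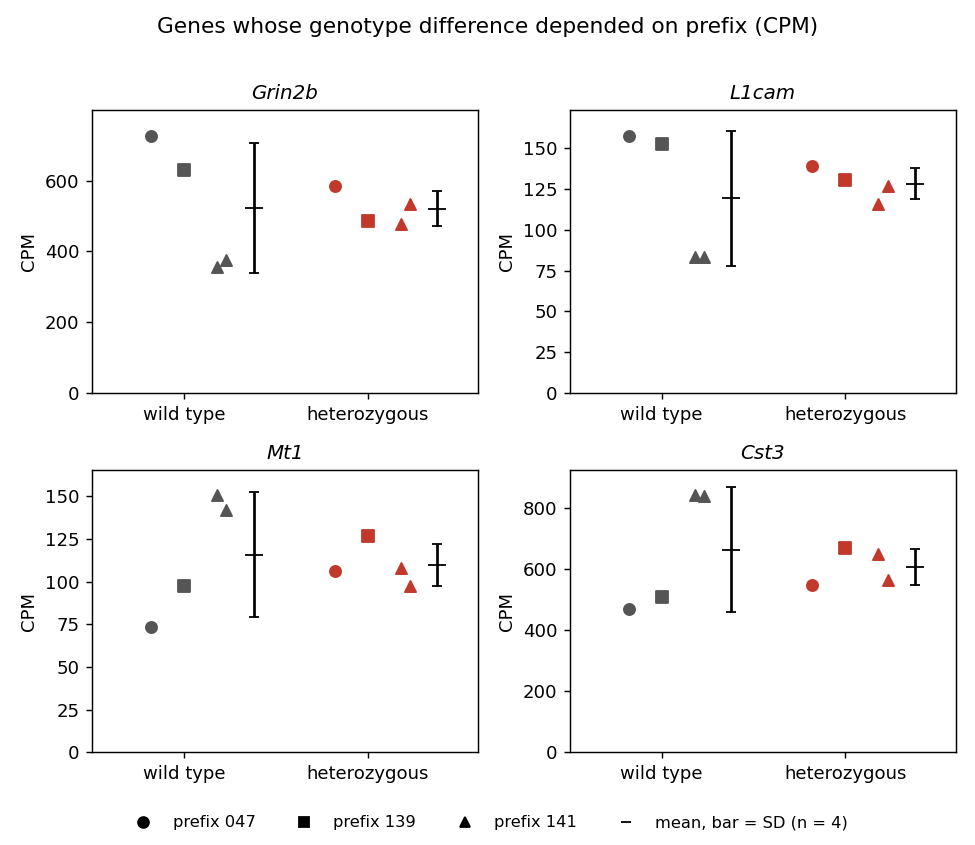
Level in CPM (y axis, linear from 0) of 4 genes in each female by genotype, with marker shape for the title prefix and the mean with SD beside the points. The 2 wild types of prefix 141 are lowest for Grin2b and L1cam and highest for Mt1 and Cst3, and the 4 heterozygotes fall between the wild types of prefix 141 and those of the other prefixes.

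Fitted alone, the 4 mice of prefix 141 gave 2354 called genes (16.8% of those tested, 2 residual degrees of freedom) and the 4 of prefixes 047 and 139 gave 89 (0.645%, 1 residual degree of freedom). Of these, 30 were shared, 14 with the same sign and 16 with opposite signs. The 14 were 0.595% of the calls in prefix 141 and 15.7% of those in prefixes 047 and 139. They were Dnmt3a, Aldh1a1, Sox21, Baiap3, Necab2, Mfge8 and Cdh19, lower in both, and Ndn, Dkk3, Trf, Srprb, Rps4y2, Adamts4 and Slc43a2, higher in both. Mfge8, Cdh19, Adamts4 and Slc43a2 are named after their values were seen. Over 13670 genes, 48.1% had the same sign in both fits, and Pearson's r of the log2 fold changes across genes was 0.01, a description since genes are not independent replicates. The test of the difference gave no call for Dnmt3a, Aldh1a1, Itih3, Slc25a18 or Ndn, and of the 16 genes named above it called Klf10 (0.27 in prefixes 047 and 139 and 0.78 in prefix 141, adjusted p = 0.00989 by edgeR). In that fit Itih3 and Slc25a18 did not pass in prefixes 047 and 139 (adjusted p = 0.326 and 0.236 by edgeR). Both passed in prefix 141 (adjusted p = 0.000221 and 1.43e-05 by edgeR). Of all 13814 genes in that fit, 2355 (17%) passed in prefix 141 and 31 (0.224%) in prefixes 047 and 139.

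**Figure D4:**
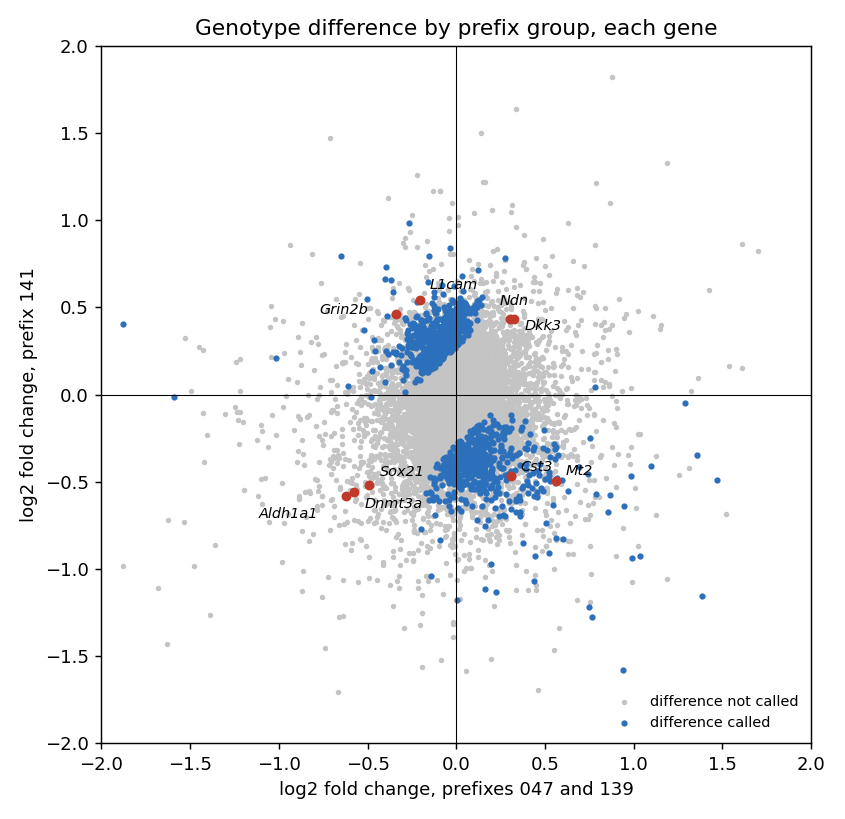
Log2 fold change (heterozygous minus wild type) of each gene in prefixes 047 and 139 (x axis) and in prefix 141 (y axis), with the 1158 genes called for a difference between them in blue and named genes in red. Dnmt3a, Aldh1a1 and Sox21 lie at lower left and Ndn and Dkk3 at upper right, while 960 of the blue points have opposite signs on the 2 axes, and 2 genes fall outside the axes.

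Cell type and pathway lists were described by counts and medians over the genes tested, beside all genes, of which 49.8% had a positive and 50.2% a negative value, with a median of -0.00065. Apart from Dnmt3a, Aldh1a1 and Ndn, no member of the lists passed in the females (0.0362% of all genes did). Among writers, erasers and readers of DNA methylation, 20 of 22 genes were tested, and Dnmt3b and Dnmt3l were too low. Of these 20, 9 were positive and 11 negative, and the median was -0.01. Dnmt3a alone did not overlap between genotypes, and 1.32% of all genes lay below without overlap. Mbd4, a glycosylase gene that repairs deaminated CG sites, had 0.29 (adjusted p = 0.362 by edgeR), and Mbd1, which encodes a methyl-CG binding protein, had -0.12. No other writer or eraser passed.

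Among genes of retinoic acid handling and signalling, the list of Aldh1a1, 6 of 19 tested were positive and 13 negative, with a median of -0.09. The receptor gene Rara was at 20.3, 13.1, and 9.71 and 9.84 CPM in wild types and 22.8, 16.0, and 14.7 and 17.1 CPM in heterozygotes (0.44), while the retinol dehydrogenase gene Rdh5 had -0.35 and the receptor gene Rarg -0.37, and none of the 3 passed. Among imprinted genes 18 of 35 were positive and 17 negative, with medians of -0.06 in prefixes 047 and 139 and 0.11 in prefix 141. Magel2, a neighbour of Ndn in the same imprinted cluster, had -0.78 and Dlk1, a Notch-like ligand gene, had -1.10, both from low counts (mean 20.5 and 27.9 reads) and without passing. So Ndn and Magel2 had values of opposite sign.

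All 23 astrocyte markers had a negative value, with a median of -0.22. The median was 0.02 in prefixes 047 and 139 and -0.43 in prefix 141, and no marker was free of overlap between the genotypes. Gfap, the astrocyte intermediate filament gene, was at 124, 109, and 238 and 259 CPM in wild types and 92.9, 109, and 149 and 142 CPM in heterozygotes (-0.50, adjusted p = 0.133 by edgeR). Agt, which encodes angiotensinogen, had -0.61 and was lower in each prefix (-0.85, -0.44 and -0.58), and the growth factor receptor gene Fgfr3 had -0.27.

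Oligodendrocyte genes leaned the other way: 17 of 22 were positive, 5 of them without overlap (1.27% of all genes lay above in this way), and the median was 0.25. Both prefix groups were positive, with 0.12 in prefixes 047 and 139 and 0.26 in prefix 141. Mal, a myelin proteolipid gene, was at 202, 223, and 234 and 291 CPM in wild types and 250, 293, and 296 and 317 CPM in heterozygotes (0.29), Mag, a myelin adhesion molecule gene, had 0.33, and Gpr37, a receptor gene of maturing oligodendrocytes, had 0.30. The summed level of the list was 4533 to 7324 CPM in wild types and 5119 to 7376 CPM in heterozygotes, overlapping. Among precursors of these cells, 4 of 13 markers were positive. Enpp6, which marks newly formed oligodendrocytes, was at 7.32 to 7.96 CPM in wild types and 8.13 to 12.99 CPM in heterozygotes (0.56), and Gpr17 had 0.25, both without overlap, while Pdgfra, the receptor gene of dividing precursors, had -0.21.

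Microglia, vascular and meningeal markers were mostly negative. For microglia 18 of 22 were negative, with a median of 0.15 in prefixes 047 and 139 and -0.26 in prefix 141. Vascular markers gave 16 of 23 negative, with 0.06 and -0.14. Meningeal and fibroblast markers gave 13 of 17 negative, with medians of -0.34 in prefix 047, 0.38 in prefix 139 and -0.46 in prefix 141, led by Myoc (-0.46, adjusted p = 0.0761 by edgeR), Ptgds (-0.30) and Slc6a13 (-0.57). The microglial genes Tyrobp and Sall1 had -0.47 and -0.21, and the smooth muscle gene Tagln -0.79.

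Neuronal lists had mostly positive values, with higher medians in prefix 141 than in prefixes 047 and 139. Deep-layer markers gave 13 of 17 positive with a median of 0.18 (0.05 in prefixes 047 and 139, 0.28 in prefix 141). Sulf2, which edits heparan sulfate, was at 113, 120, and 78.1 and 76.2 CPM in wild types and 135, 131, and 97.8 and 106 CPM in heterozygotes (0.30). Ntsr1, the neurotensin receptor gene of layer 6 neurons, was higher by 0.32, 0.32 and 0.36 in the 3 prefixes, and Fezf2, a regulator of subcortical projection neurons, by 0.24, 0.17 and 0.28. Upper-layer markers were split, 7 of 14 positive. Inhibitory neuron markers gave 15 of 23 positive with a median of 0.07, among them Npy (0.31) and Gad1, the GABA-synthesizing enzyme gene (0.21). Neuropeptide genes gave 18 of 22 positive, and Cartpt, of low count, was lower without overlap (-0.69).

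Acetylcholine receptor genes were positive in 9 of 9 tested with a median of 0.11, but the median was -0.09 in prefixes 047 and 139 and 0.35 in prefix 141. Chrna4, a nicotinic subunit gene, was at 70.2, 73.8, and 39.2 and 44.0 CPM in wild types and 84.1, 75.8, and 59.2 and 63.9 CPM in heterozygotes (0.34, adjusted p = 0.170 by edgeR). Voltage-gated channels gave 34 of 45 positive, with -0.04 and 0.27 in the same order, and presynaptic genes 27 of 40, with -0.01 and 0.17. Postsynaptic genes were split, 23 of 41 positive. Within them the scaffold genes Shank1, Shank2 and Dlgap3 had -0.31, -0.25 and -0.29, each with -0.04 to -0.19 in prefixes 047 and 139 and -0.36 to -0.49 in prefix 141. Among autism risk genes 34 of 54 were positive, with medians of -0.07 in prefixes 047 and 139 and 0.13 in prefix 141, and Shank3 had -0.28.

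Immediate early genes, which respond to neuronal activity within minutes, gave 21 of 26 positive with a median of 0.12, and none lacked overlap. The medians were 0.19, -0.17 and 0.25 in prefixes 047, 139 and 141. Ier5 was at 152, 111, and 76.5 and 91.0 CPM in wild types and 164, 144, and 112 and 122 CPM in heterozygotes (0.36, adjusted p = 0.133 by edgeR), Nptx2 had 0.30 and Egr1 0.26.

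Ribosomal protein genes gave 58 of 60 negative with a median of -0.21, which was -0.01 in prefixes 047 and 139 and -0.38 in prefix 141. Rpl32 was at 23.7, 26.0, and 48.2 and 49.1 CPM in wild types and 22.2, 24.3, and 32.8 and 30.8 CPM in heterozygotes (-0.38). Nuclear genes of the respiratory chain gave 57 of 69 negative, with 0.07 in prefixes 047 and 139 and -0.25 in prefix 141. Both lists, like the share of mitochondrial transcripts given above, were highest in the prefix 141 wild types, and the part of that share in them was not tested. Rpl27, Rpl28, Rpl36a, Rpl38, Rps16, Rps29 and Atp5g2, which every cell uses, were listed at 0.

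Sox factors had 11 of 15 negative (median -0.13). Wnt ligands and antagonists had 13 of 18 negative, with medians of -0.20 in prefixes 047 and 139 and 0.04 in prefix 141 and Wnt10a, a ligand gene, at 0.50. Genes of oestrogen and progesterone signalling had 11 of 16 negative (-0.09), with Igfbp4, an insulin-like growth factor binding protein gene, at 0.31 and the oxytocin receptor gene Oxtr at -0.38. Overgrowth genes (17 of 28 positive, 0.02), circadian genes (10 of 20, -0.01), glucocorticoid targets (10 of 18, 0.02) and genes of X inactivation and escape from it (6 of 14, -0.02) had medians near 0. Striatal markers had medians of -0.51 in prefix 047, -0.00115 in prefix 139 and 0.19 in prefix 141, and hippocampal or thalamic markers -0.29, 0.02 and -0.02. The summed level of the striatal list was 925.6 to 1435 CPM in wild types and 847.5 to 1416 CPM in heterozygotes, highest in the 2 mice of prefix 139. Interferon genes had 12 of 18 positive, with medians of 0.25 in prefixes 047 and 139 and -0.08 in prefix 141, and 4 choroid plexus, 5 blood and 4 germline genes were tested.

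**Figure D5:**
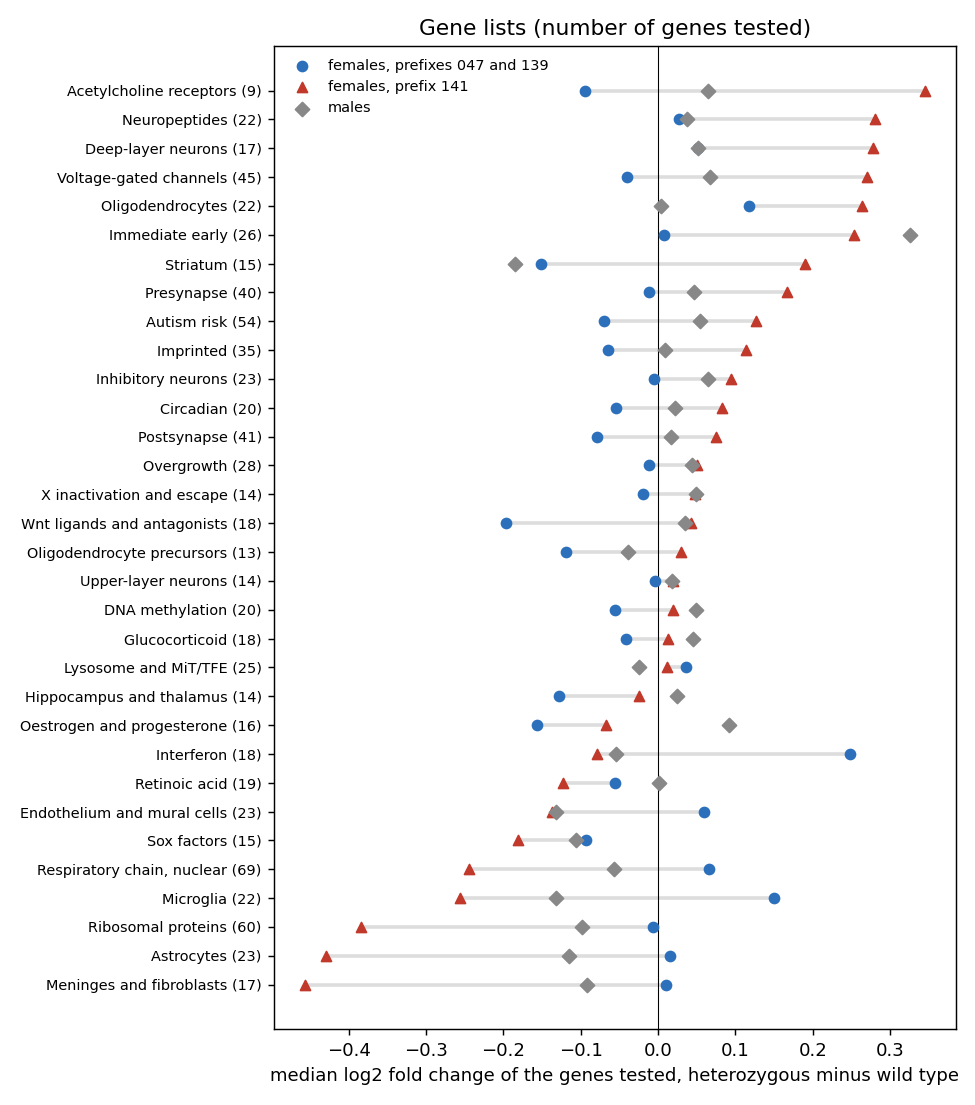
Median log2 fold change (x axis) over the genes tested in each list of 9 or more genes, for females of prefixes 047 and 139, females of prefix 141 and males. Astrocyte and ribosomal protein lists are near 0 in prefixes 047 and 139 and low in prefix 141, the meningeal value near 0 joins -0.34 in prefix 047 and 0.38 in prefix 139, while the oligodendrocyte list is positive in both groups of females and near 0 in males.

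In a fit of all 14 mice, the genotype effect in the 6 males called 1 gene of 13815 (0.00724%). It was Dnmt3a, with a log2 fold change of -0.57 (SE 0.0858, adjusted p = 0.0171 by edgeR). The male values below are from the same fit. Each prefix held mice of 1 sex only, so a difference between the sexes cannot be told apart from a difference between sets of prefixes. The test of the female against the male effect called 0 genes with edgeR and 0 with DESeq2. Without adjustment, 466 genes (3.37%) had p under 0.05 with edgeR and 182 with DESeq2. All 16 genes named from the females had the same sign in males, as did 59.2% of 13746 genes, and their male values ran from -0.57 to 1.46. In males Aldh1a1 had -0.48 (SE 0.0835, adjusted p = 0.0683 by edgeR) and Gpnmb 1.46. Sox21 (-0.06), Itih3 (-0.08), Necab2 (-0.07), Trf (0.07), Srprb (0.05) and Tmod1 (0.01) were close to 0 there, but the differences did not pass (adjusted p of 0.992 by edgeR for each). Ndn had 0.38 in females and 0.11 in males, a difference of 0.27 (SE 0.108).

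Enpp6, Tmod1 and Rgs20 had the smallest p among genes with a higher value in females, and Pim3, Cecr2 and Csrnp1 among those with a lower value. Enpp6 had 0.56 in females and -0.19 in males, and Csrnp1, an immediate early type transcription factor gene, -0.03 and 0.58. The oligodendrocyte median was 0.25 in females and 0.00 in males, the astrocyte median -0.22 and -0.12, and the immediate early median 0.12 and 0.33. These medians compare sets of prefixes as well as sexes. With the wild type or the heterozygote of prefix 119 left out, 1 gene was called for the difference between the sexes, Tfrc, the transferrin receptor gene. Tfrc is named here after its value was seen. Either fit loses the same genotype pair, so they are not separate results.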

How the data were processed

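The authors deposited 1 table of whole-number counts of reads per gene symbol for 14 mice (34193 symbols, 14540 without a read). The submitters' processing notes name Trim Galore, Bowtie, STAR, bedtools and the mm9 build, with no versions or roles. The sources used here do not give the strand setting of the counting, and the labels list genomic DNA as the molecule although their protocols describe RNA libraries. Counts of the 8 females were tested in R 4.3.3 with the quasi-likelihood test of edgeR 4.0.16 (robust dispersion, TMM factors, filterByExpr by genotype, and the title prefix as a term), with Benjamini-Hochberg adjustment and a threshold of 0.05. The genes tested held at least 99.88% of counts in each animal. Total counts ranged from 8951835 to 14335406. How far the precision rests on the spread between animals or on counting noise was not tested. Each standard error is the log2 fold change divided by the root of F. limma was version 3.58.1. The interaction with prefix 141 used the same 8 mice, and that with sex used all 14 with 6 prefixes. The function was tested on simulated data. Log2 CPM had a prior count of 2.

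The prefix was a term because the comparison was defined with it. Deviations of same-prefix heterozygotes and wild types from their genotype means correlated at 0.283 to 0.438 in the 6 pairs. Pairs of prefix 047 with prefix 139 also correlated, at 0.196 and 0.306, and pairs of prefix 141 with either at -0.422 to -0.254. The pattern thus largely sets prefix 141 against the others. Its negative values follow in part from the method, since deviations from a genotype mean cancel out over the animals of that genotype. The pattern cannot tell a block for each prefix from a term for prefix 141 alone. Genes were named by the smallest p in each direction (at most 12 that passed; with 1 higher and 4 lower passing here, filled up to 8 with genes that did not), Dnmt3a, up to 4 members with the smallest p of each list described, 3 per direction for each interaction, and Aldh1a1, Sox21, Gpnmb and Myh7b. Genes with a mean count under 20 were left out as uncertain. The members, lists and the named genes were chosen with earlier results of these data known. Annotated genes overlap Aldh1a1, Ndn, Sox21, Klf10 and Tmod1 in RefSeq. Alternatives were other normalizations, tests, filters, prefix terms and sets of animals. DESeq2 1.42.0 was used without shrinkage. The authors' deposited columns of their own comparison were not used.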

Additional observations from a re-analysis of the deposited data

Results flagged for a closer look

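The difference of the genotype effect between prefix 141 and prefixes 047 and 139 was called for 1158 genes by edgeR's quasi-likelihood test. The 6 genes named for it differed between these 2 groups of females by 0.81 (Grin2b), 0.84 (Odz1), 0.74 (L1cam), -1.06 (Mt2), -0.95 (Mt1) and -0.78 (Cst3) on the log2 scale, prefix 141 minus the others. Astrocyte markers, ribosomal protein genes and mitochondrial transcripts were also highest in the prefix 141 wild types, as given above, and their part in these differences was not tested.

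The summed level of immediate early genes in the prefix 047 heterozygote, 3298 CPM, lay apart from those of the other 3 heterozygotes, at 2398 to 2462 CPM. It was the single value far from its group among 58 groups of 4 animals examined, and chance alone flags about 1 in 20 groups.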

How the results depend on the processing

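The number of genes called in the females (5) depended on the processing. By edgeR it was 0 with no replicate block (no prefix term; 421 genes at an unadjusted p under 0.05), 9 with a term for prefix 141 in place of the prefix, 3 with total counts or with upper quartile factors, 2 without robust dispersion, 248 without a filter and 2 with a stricter filter (50 reads in 4 animals). DESeq2 called 28. Leaving out 1 animal gave 2 to 226, leaving out prefix 139 gave 228 and prefix 141 gave 89, prefix 141 alone gave 2354, and all 14 animals gave 3 in females. RLE factors and limma-voom gave the same 5 genes. The cause was not tested.

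Dnmt3a kept its direction in all 23 alternatives, with log2 values from -0.61 to -0.51, and missed the threshold only with no replicate block (-0.56, adjusted p = 0.999 by edgeR). Aldh1a1 kept its direction in its 22 alternatives and missed the threshold in the same one. DESeq2 gave it no adjusted p. With prefix 141 left out, Atp5j (0.0201), Cox8a (0.0483) and Pdgfrb (0.0267) changed sign. None of these 3 had passed.

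The 1158 genes that differed between prefix 141 and the others became 589 with DESeq2 and 286 to 1156 with 1 animal left out. These leave-one-out fits and the scalings for this test were chosen after seeing the data. The difference between females and males was called for 0 or 1 genes with 1 animal left out, 1 without the wild type or the heterozygote of prefix 119. Either of the latter fits loses the same genotype pair. The main comparison rests on 4 animals a group and 4 residual degrees of freedom.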
